A study of Mus musculus with 6 samples.

Results

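The interferon-induced transmembrane genes Ifitm1, Ifitm2 and Ifitm3 and the Ly6 genes Ly6e, Ly6a and Ly6c2 were followed across 6 libraries of sorted mouse embryonic cells, as 6 of the 17909 genes in the deposited expression table. They were selected by name because Ifitm1 and Ly6e stood high in progenitors at E11.5 (E marks the embryonic day) and lower later. That selection used the same values as those given here, so the levels are a description and no test was made on them. All cells came from embryos of a C57BL/6xFVB background that carried the Csf1r-iCre fate-mapping transgene, in which Cre recombinase under control of Csf1r sequences marks cells that express Csf1r, and the progeny of such cells. The first 3 groups were from fetal liver at E11.5 and are labelled erythro-myeloid progenitors (EMPs), mast cell progenitors (MCPs) and macrophages. The others were limb MCPs at E11.5, those at E14.5 and a skin group at E16.5 that the labels call both MCPs and mast cells. Each group held 1 library, and the numbers of embryos and of cells per library were not given in the sources used here. No standard error or p-value therefore exists, and the differences describe these libraries only. The study asked where connective tissue mast cells come from, as its title states, and these comparisons describe surface genes along that lineage.

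IFITM proteins are small membrane proteins that sit in the plasma membrane and in endosomes. They are known for blocking the fusion of enveloped viruses with cell membranes, and interferon induces them in many cells, although germ cells, stem cells and progenitors can express them without interferon. Ly6 proteins are small, folded surface proteins tethered to the membrane by a glycosylphosphatidylinositol (GPI) anchor. Ly6a is the stem cell antigen Sca-1 of haematopoietic stem cells, Ly6c2 is one of the genes of the Ly-6C antigen of monocytes, and Ly6e is broadly expressed and interferon-inducible.

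On GRCm38 (GENCODE M21), the 3 Ifitm members lie on chromosome 7, with Ifitm2 (ENSMUSG00000060591.9) at chr7:140954837-140955987 on the minus strand, Ifitm1 (ENSMUSG00000025491.14) at chr7:140967221-140969825 on the plus strand, and Ifitm3 (ENSMUSG00000025492.6) at chr7:141009586-141010770 on the minus strand. The Ly6 members lie on chromosome 15, with Ly6e (ENSMUSG00000022587.14) at chr15:74955051-74959905 on the plus strand, and Ly6a (ENSMUSG00000075602.10) at chr15:74994877-74998031 and Ly6c2 (ENSMUSG00000022584.14) at chr15:75108158-75111970 on the minus strand. RefSeq promoter entries (GRCm38.p6) matched 4 of the 6 members. The sequences below run from 70 bases before to 30 bases after the RefSeq start of each gene, 5′ to 3′ in the sense of the gene. They are shown to describe the interferon-response letters at the starts of neighbouring Ifitm genes. Whether these letters bear on the levels was not tested. Capitals mark every match to the core of the interferon-stimulated response element (ISRE), spelled GAAANNGAAA and searched on both strands. The windows are chr7:140968006-140968105 (Ifitm1), chr7:140955932-140956031 (Ifitm2), chr7:141010715-141010814 (Ifitm3) and chr15:75111942-75112041 (Ly6c2).
Ifitm1: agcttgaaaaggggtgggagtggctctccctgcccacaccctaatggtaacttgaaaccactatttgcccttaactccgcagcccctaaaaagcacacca
Ifitm2: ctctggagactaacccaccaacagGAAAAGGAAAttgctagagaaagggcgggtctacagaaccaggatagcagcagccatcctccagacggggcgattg
Ifitm3: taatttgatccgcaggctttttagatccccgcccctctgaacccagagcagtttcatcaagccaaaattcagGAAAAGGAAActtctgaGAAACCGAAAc
Ly6c2: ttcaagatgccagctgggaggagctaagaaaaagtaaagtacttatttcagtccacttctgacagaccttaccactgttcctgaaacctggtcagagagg

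Over the full RefSeq windows of 300 bases (250 before and 50 after the start), Ifitm3 held 2 ISRE cores, at positions 3 to 12 and 20 to 29 counted from 1 at the first transcribed base. Ifitm2 held 1, from 46 to 37 bases before the start, with the same letters as the first core of Ifitm3. No ISRE core was found in the window of Ifitm1 or in either of the windows listed for Ly6c2. Among all 32851 windows, 1131 (3.44%) held an ISRE core. The gamma-activated site of STAT proteins, spelled TTCNNNGAA, occurred in 8.30% of all windows and once among the members, at positions 14 to 22 of Ifitm3, where it overlaps the second ISRE core. These matches describe letters in these windows, and GENCODE lists 3 transcripts of Ifitm1, whose other starts were not searched.

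Expression is given as FPKM, fragments per kilobase of transcript scaled to the mapped fragments of the library, which allows levels of different genes to be compared per length. Depth was estimated from the smallest steps between FPKM values and came to between 8600000 and 12150000 fragments per library, at which 3 fragments on a 2 kb transcript correspond to 0.123 to 0.174 FPKM. The intervals printed with values are approximate 95% Poisson intervals on the implied fragments and cover counting error only. Overlap between intervals is not a test of a difference. The skin library stood apart: it had 5675 genes at 1 FPKM or more against 8270 to 8754 in the others, its FPKM values summed to 84036 against 140044 to 169289, and the mast cell protease Cpa3 alone took 16.1% of that sum. Of 1660 genes at 10 FPKM or more in the 5 other libraries, 26 were listed at 0 in skin, so low values there are less secure. The mast cell receptor gene Kit (FPKM of 95.3, 155, 284 and 239) and the IgE receptor chain Ms4a2 (23.8, 28.6, 41.0 and 47.3) were present in liver MCPs, limb MCPs (E11.5, then E14.5) and skin, in that order. In EMPs Kit read 41.7 and Ms4a2 1.8. Of the 22 mast cell markers, 11, 13, 19 and 21 reached 1 FPKM in the same 4 libraries and 6 in EMPs, and 8 were listed at 0 in liver MCPs. The macrophage-labelled library held 34.1 FPKM of Csf1r, the receptor for macrophage colony-stimulating factor, and 18.4 of Adgre1, which encodes F4/80. It also held 5617 FPKM of the eosinophil granule gene Prg2 and 3621 of the neutrophil granule gene Mpo, and is called the macrophage-labelled library for that reason. EMPs held more Mpo, at 8174 FPKM, with 1166 of the neutrophil granule gene Elane and 151 of Prg2. The name EMPs is likewise that of the label and does not mean a library free of granulocyte transcripts.

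**Figure D1:**
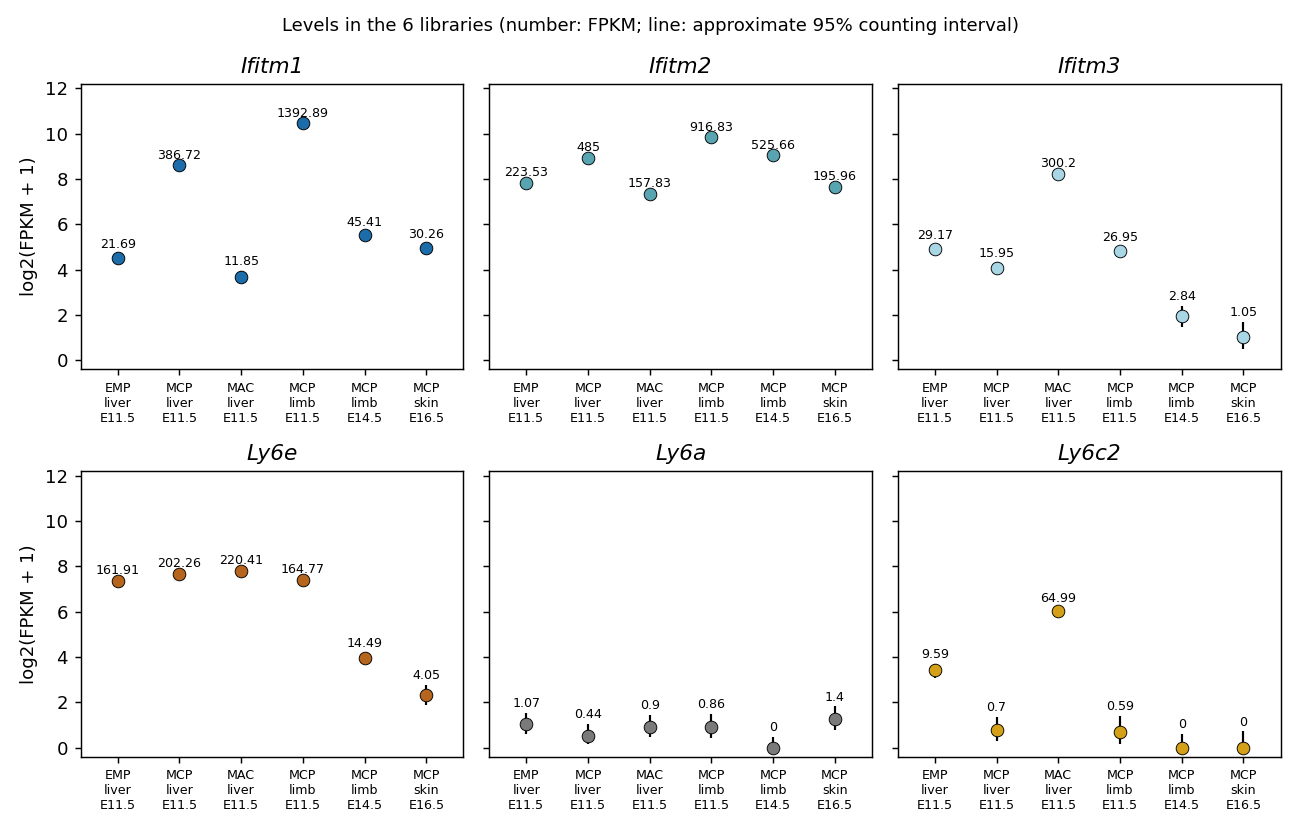
FPKM of each gene in each library, plotted as log2(FPKM + 1), with the deposited FPKM printed above each point and vertical lines for the approximate 95% counting interval. Ifitm1 is highest in limb MCPs at E11.5 (1392.89), Ifitm3 and Ly6c2 in the macrophage-labelled library (300.2 and 64.99), and Ly6e stays between 161.91 and 220.41 in the 4 E11.5 libraries.

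Ifitm1, whose product sits mainly at the plasma membrane and which early primordial germ cells express, read 21.7 FPKM in EMPs, 386.72 in liver MCPs, 11.9 in the macrophage-labelled library, 1392.89 in limb MCPs of E11.5, 45.4 in those of E14.5 and 30.3 in skin cells. It was thus high in both MCP libraries of E11.5 and low in the other 2 libraries of that age, which came from the same organ as the liver MCPs. In limb MCPs at E11.5 it ranked 3 among all genes by FPKM, and in liver MCPs 54. The counting intervals of the 6 values did not overlap between neighbours in the order, for example 18.7 to 24.97 in EMPs and 26.2 to 34.8 in skin. Among the 4 libraries of E11.5 the highest value was 118 times the lowest. The ratio for Ly6c2 was 110, but its lowest value rests on about 3.24 fragments, so the order of these ratios is not resolved.

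Ifitm2, a close paralog of Ifitm3 that is less studied, was the most even of the Ifitm members. It read 224 FPKM in EMPs, 485 in liver MCPs, 158 in the macrophage-labelled library, 917 in limb MCPs of E11.5, 526 in those of E14.5 and 196 in skin. Its lowest value was the 158 of the macrophage-labelled library, its intervals did not overlap between neighbours in the order, and limb MCPs at E11.5 were again the highest, where Ifitm2 ranked 4 among all genes, directly after Ifitm1. The single value is uncertain, because 48.5% of the 606 stretches of 50 bases in its transcript also occur in another annotated gene, 36.1% in a single predicted gene. The predicted genes that share stretches with it are not listed in the deposited table, and whether reads were divided with them is not known. Ifitm3, which is listed, shares 3.30%. The share found in any other gene was 5.02% for Ifitm1 and 10.02% for Ifitm3.

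Ifitm3, the main antiviral member of the family in endosomes, had its peak elsewhere. It read 29.2 FPKM in EMPs, 15.95 in liver MCPs, 300.2 in the macrophage-labelled library, 27.0 in limb MCPs of E11.5, 2.84 in those of E14.5 and 1.05 in skin. The macrophage-labelled library stood alone at the top, and the 3 other E11.5 libraries lay between 15.95 and 29.17. The counting intervals of EMPs (25.6 to 33.1) and limb MCPs at E11.5 (22.9 to 31.5) overlapped. Those of limb MCPs at E14.5 (1.76 to 4.33) and skin (0.400 to 2.24) overlapped in part. Without the macrophage-labelled library the highest value would be that of EMPs.

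The summed FPKM of the 3 Ifitm genes was 274 in EMPs, 888 in liver MCPs, 470 in the macrophage-labelled library, 2337 in limb MCPs of E11.5, 574 in those of E14.5 and 227 in skin. Limb MCPs at E11.5 thus gave 1.67% of their whole FPKM sum to these genes, against 0.162% to 0.579% in the other libraries. Which gene led differed between libraries. Ifitm1 made up 59.6% of the sum in limb MCPs at E11.5 and 43.6% in liver MCPs, and between 2.52% and 13.3% elsewhere. Ifitm3 made up 63.9% in the macrophage-labelled library, against 10.6% in EMPs and 0.462% to 1.80% in the 4 MCP and skin libraries. Ifitm2 led in EMPs (81.5%), liver MCPs (54.6%), limb MCPs at E14.5 (91.6%) and skin (86.2%). A library without replicates gives these shares no error beyond counting, and the shared stretches of Ifitm2 apply to them too.

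**Figure D2:**
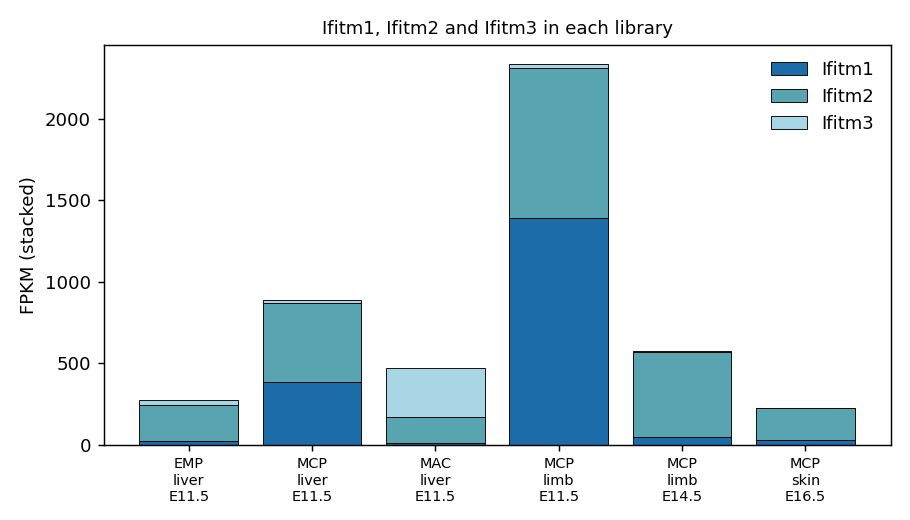
Stacked FPKM of Ifitm1, Ifitm2 and Ifitm3 in the 6 libraries, on a linear axis from 0. The bar of limb MCPs at E11.5 reaches 2337 FPKM and is mostly Ifitm1, the macrophage-labelled bar is mostly Ifitm3, and the EMP, E14.5 and skin bars are mostly Ifitm2.

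Ly6e, a GPI-anchored protein with roles in viral entry and, in the placenta, in cell fusion, read 162 FPKM in EMPs, 202 in liver MCPs, 220 in the macrophage-labelled library, 165 in limb MCPs at E11.5, 14.49 in limb MCPs of E14.5 and 4.05 in skin. The 4 libraries of E11.5 were alike whatever the organ or cell label, with the highest at 1.36 times the lowest, and both later libraries were far below them. The counting intervals of EMPs (154 to 170) and limb MCPs at E11.5 (155 to 175) overlapped. Those of liver MCPs and of the macrophage-labelled library just touched, at 193 to 211 and 211 to 230. By rank among all genes Ly6e went from 88 to 139 in the E11.5 libraries to 1887 at E14.5 and 2658 in skin. None of the 2829 stretches of 50 bases in its transcripts occurred in another gene.

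Ly6c2 read 9.59 FPKM in EMPs, 0.7 in liver MCPs, 65.0 in the macrophage-labelled library, 0.59 in limb MCPs at E11.5, and was listed at 0 in limb MCPs at E14.5 and in skin. It was therefore detected above a handful of fragments in the liver EMP and macrophage-labelled libraries alone, where the values correspond to about 74.3 and 466 fragments. A listed 0 allows up to 0.426 FPKM at E14.5 and 0.525 in skin at 3 fragments. Its paralog Ly6c1, of the same antigen, shares 30.8% of the 50-base stretches of Ly6c2 and read 3.79 FPKM in the macrophage-labelled library and at most 0.47 elsewhere, so reads could have been divided between these genes.

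Ly6a was near the limit of detection throughout, with 1.07 FPKM in EMPs, 0.44 in liver MCPs, 0.9 in the macrophage-labelled library, 0.86 in limb MCPs of E11.5, 0 in those of E14.5 and 1.4 in skin. The highest value, in skin, had an interval of 0.692 to 2.52 FPKM, which overlapped those of the 4 E11.5 libraries. The listed 0 at E14.5 allows up to 0.317 FPKM at 3 fragments. The intervals of Sca-1 RNA in the 4 E11.5 groups and skin thus overlapped, and the order of these low values is uncertain. In addition, 15.0% of the stretches of Ly6a occur in Ly6c1.

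Comparisons between pairs of libraries used the difference of log2(FPKM + 1). A gene was tested when it had 10 FPKM or more in either library and called at a difference of 2 or more, a 4-fold change. A gene that passed this filter through a single library of a pair could only be called higher in that library. This holds for members and for the background alike. Fold values are ratios of FPKM without the added 1. The share of all tested genes called in the same direction is given with each count of members as a background. The 6 comparisons share libraries, so they do not support each other.

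Liver EMPs and liver MCPs share organ and age and differ in label. Between them, Ifitm1 was 17.8-fold higher in MCPs (21.7 against 386.72 FPKM, a log2 difference of 4.09). It was the third largest increase of 3369 tested genes. Ifitm2 was 2.17-fold higher (1.11), Ly6e 1.25-fold higher (0.32) and Ifitm3 1.83-fold lower (-0.83), none of them called. Of the 4 members tested, 1 was called higher, against 1.78% of all genes, and 0 lower, against 3.09%. Ifitm1 had been selected for a high level in E11.5 progenitors, so this count and its rank are no independent evidence of an increase. The members' median difference was 0.72 and that of all tested genes -0.18. Ly6c2 was 13.7-fold lower in MCPs but stayed under 10 FPKM in both libraries. Over the same pair the 21 monocyte and neutrophil markers summed to 10649 FPKM in EMPs and 1102 in MCPs, with Elane at 1166 and 14.7, and the 17 erythroid markers to 96.3 and 417, and the part of these cells' RNA in the members' differences was not tested.

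Between EMPs and the macrophage-labelled library, Ifitm3 and Ly6c2 were higher in the latter. Ifitm3 was 10.3-fold higher (29.2 against 300.2 FPKM, 3.32 on the log2 scale, rank 25 of 3179 tested genes) and Ly6c2 6.78-fold higher (9.59 against 65.0, 2.64, rank 37). Ly6e was 1.36-fold higher (0.44), Ifitm1 1.83-fold lower (-0.82) and Ifitm2 1.42-fold lower (-0.50). Of the 5 members tested, 2 were called higher, against 2.39% of all genes, and 0 lower, against 0.661%. Ly6c2, under 10 FPKM in EMPs, passed the filter through the macrophage-labelled library alone and could only be called higher. The members' median was 0.44 and that of all tested genes -0.29. In this pair the 9 eosinophil markers summed to 270 FPKM in EMPs and 10026 in the macrophage-labelled library, and the 17 macrophage markers to 254 and 2761, of which the lysozyme gene Lyz2 made up 227 and 2633. The 21 monocyte and neutrophil markers summed to 10649 and 8688, with Mpo alone at 8174 and 3621, but 9 of the 19 tested were called higher in the macrophage-labelled library and 0 lower, with a median difference of 2.06, among them Ngp (18.2 and 693), Lcn2 (16.1 and 281) and Itgam (29.2 and 125). The complement gene C1qb, typical of macrophages, was at 0 in EMPs and 6.82 in the macrophage-labelled library. Which of these cells carried Ifitm3 and Ly6c2 was not tested, and in pooled RNA more cells of a type and more RNA per cell cannot be told apart, here and in the comparisons that follow.

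Liver and limb MCPs at E11.5 differ in organ alone by their titles. The sample descriptions carry a positive mark for liver MCPs only, so equal sorting is not shown. No member passed the 4-fold threshold between these libraries, and the largest difference was that of Ifitm1. It was 3.60-fold higher in limb (386.72 against 1392.89 FPKM, 1.85 on the log2 scale, rank 49 of 3136). Ifitm2 was 1.89-fold higher (0.92) and Ifitm3 1.69-fold higher (0.72), while Ly6e was 1.23-fold lower (-0.29). Of the 4 members tested, 0 were called higher, against 1.18% of all genes, and 0 lower, against 2.04%. The members' median was 0.82 and that of all tested genes -0.16. Depth was lowest in the limb library, at 8600000 fragments, which still gave Ifitm1 about 8816 fragments. In this pair the 17 erythroid markers summed to 417 FPKM in liver and 90.7 in limb, with 5 of 10 tested called lower in limb and the globin gene Hbb-b1 at 119.88 and 0.19. The monocyte and neutrophil markers summed to 1102 and 538, with 0 of 9 called, and the 22 mast cell markers to 685 and 1483, with Cyp11a1 (0.67 and 20.1) and Slc18a2 (1.59 and 20.4) called higher. Their part in the difference of Ifitm1 was not tested.

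Between limb MCPs at E11.5 and E14.5, the same organ and label 3 days apart, Ifitm1, Ly6e and Ifitm3 were all lower at the later age. Ifitm1 was 30.7-fold lower (-4.91), the third largest decrease of 2970 tested genes. Ly6e was 11.4-fold lower (-3.42, rank 21 from the lowest) and Ifitm3 9.49-fold lower (-2.86, rank 29). Ifitm2 was 1.74-fold lower (-0.80) and was not called. Of the 4 members tested, 0 were called higher, against 2.39% of all genes, and 3 lower, against 1.75%. Ifitm1 and Ly6e had been selected for a later fall, so this count is no independent evidence of its direction. Ifitm3, at 2.84 FPKM at E14.5, passed the filter through the E11.5 library alone and could only be called lower. The members' median was -3.14, while that of all tested genes was 0.10. Over the same step the 21 monocyte and neutrophil markers went from a sum of 538 FPKM, with 2 of them at 0, to 14.2, with 8 at 0, and Mpo from 417 to 1.25. The 16 connective tissue markers went from 13.4 to 94.7, with Col1a1, a collagen chain, at 0.1 and 17.6. The eosinophil markers went from 97.4 to 2.6 and the 12 lymphoid markers from 82.6 to 23.1, with Cd3g (24.8 and 3.26) called lower. The 22 mast cell markers went from 1483 to 4779, with 8 of 17 tested called higher. The endothelial markers went from 10.7 to 7.03, sums made up mostly of Pecam1 (6.66 and 5.02). Cdh5, a defining endothelial gene, was near 0 in both, at 0.06 and 0.15. The part of these cells in the decrease of Ifitm1, Ly6e and Ifitm3 was not tested.

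Between E14.5 limb MCPs and skin cells of E16.5, organ and age changed together and cannot be told apart. Ifitm1 was 1.501-fold lower in skin (-0.57), Ifitm2 2.68-fold lower (-1.42) and Ly6e 3.58-fold lower (-1.62), and none of these passed the 4-fold threshold. The median of all tested genes was itself -1.42 in this pair, and Ifitm2 and Ly6e lay 0.01 and -0.19 from it. Ifitm1 stood 0.85 above it. Of the 3 members tested, 0 were called higher, against 1.78% of all genes, and 0 lower, against 33.4%. Under median-of-ratios scaling, which centres on genes detected in all 6 libraries, the median of all genes became 0.43 and the difference of Ifitm1 became 0.86, so the direction of this gene in skin depends on the scaling.

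Against liver MCPs of E11.5, skin cells were lower in Ly6e by 49.9-fold (-5.33, rank 14 from the lowest of 2959 genes), in Ifitm3 by 15.2-fold (-3.05) and in Ifitm1 by 12.8-fold (-3.63). Ifitm2 was 2.47-fold lower (-1.30), and its difference from the median of all tested genes, which was -1.55, was 0.25. Of the 4 members tested, 0 were called higher, against 4.53% of all genes, and 3 lower, against 38.1%, so that a lower call was common in this pair. Ifitm3 and Ly6e, at 1.05 and 4.05 FPKM in skin, passed the filter through liver MCPs alone and could only be called lower. The members' median was -3.34. In limb MCPs of E14.5, set in place of the skin library, Ly6e read 14.49 FPKM, Ifitm3 2.84 and Ifitm1 45.4. Liver MCPs read 202.26, 15.95 and 386.72 in the same order. Ifitm1 and Ly6e had been selected for a later fall. Neither the count in skin nor these values are therefore independent evidence of its direction. The erythroid markers summed to 417 FPKM in liver MCPs and 7.62 in skin (10 of 10 tested called lower), the monocyte and neutrophil markers to 1102 and 13.99 (8 of 8), the eosinophil markers to 90.8 and 16.6 (3 of 3) and the mast cell markers to 685 and 18591 (16 of 19 called higher), and their part in the members' differences was not tested. Relative to the all-gene median, the difference of Ly6e in skin was -3.78, that of Ifitm1 -2.08 and that of Ifitm3 -1.499.

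**Figure D3:**
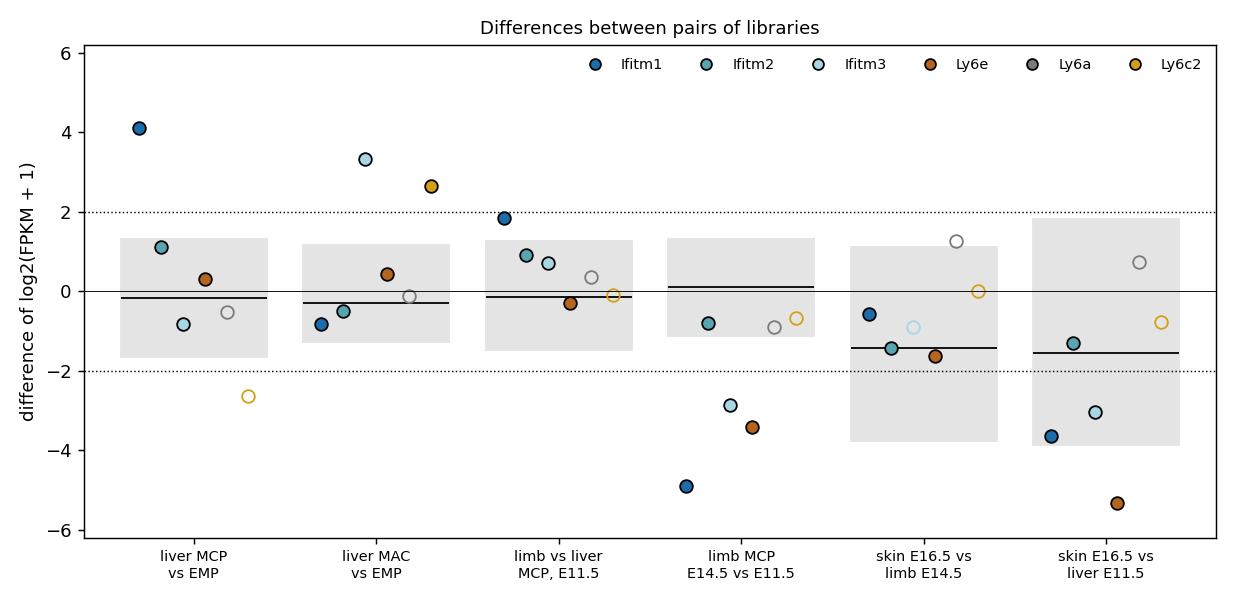
Difference of log2(FPKM + 1) for each gene in the 6 pairs of libraries, first library minus second as written under the axis; open circles are genes below 10 FPKM in both libraries. Grey boxes span the 5th to 95th percentile of all tested genes, black lines are their medians and dotted lines mark 4-fold; Ifitm1 is at 4.09 for liver MCPs against EMPs and -4.91 for E14.5 against E11.5 limb, and the medians of the skin pairs lie at -1.42 and -1.55.

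The other Ifitm genes were low but for Ifitm6, a family member of myeloid cells that lies 4.93 kb from Ifitm3. Ifitm6 read 29.1 FPKM in the macrophage-labelled library, 3.03 in liver MCPs, 0.67 in limb MCPs at E11.5 and 0 in EMPs, limb MCPs at E14.5 and skin. Its highest library was thus that of Ifitm3, and EMPs, with 29.2 FPKM of Ifitm3, were listed at 0 for Ifitm6. Ifitm5, the bone-restricted member, read between 0.26 and 3.61 FPKM, with its highest value in limb MCPs at E14.5, and Ifitm7 and Ifitm10 did not pass 0.2. Within 250 kb of the Ifitm members the table held 23 other genes, of which Ifitm6 and Rnh1 reached 10 FPKM. Rnh1, the ribonuclease inhibitor, read 15.3, 16.2, 21, 11.2, 17.5 and 6.67 FPKM from EMPs to skin, a range far narrower than those of Ifitm1 and Ifitm3.

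Around the Ly6 members none of 12 neighbouring genes reached 10 FPKM, so that Ly6e and, in the macrophage-labelled library, Ly6c2 were the genes of the locus above that level. Of 26 other genes of the Ly6 and urokinase receptor family, none reached 10 FPKM in any library. Ly6g (2.14 FPKM), the neutrophil surface antigen, and Cd177 (7.32), a neutrophil surface protein, were highest in the macrophage-labelled library, as Ly6c1 and Ly6c2 were. Cd59a, the complement inhibitor, followed another order, with 0.84 FPKM in EMPs, 7.67 in liver MCPs, 0.15 in the macrophage-labelled library, 7.84 and 3.3 in the limb MCPs of E11.5 and E14.5, and 5.73 in skin. Plaur, the urokinase receptor, read 2.92 in EMPs and 1.5 in skin and at most 0.47 elsewhere. Ly6g6c reached 2.35 FPKM in limb MCPs at E14.5 and Ly6g5b 1.02 in the macrophage-labelled library.

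Interferon-stimulated genes were followed as a list of 61 genes in the table, with the members left out. Those at 1 FPKM or more in either library numbered 34, 45, 34, 32, 30 and 35 in the 6 comparisons, in the order given above. Their median differences were 0.12, 0.60, -0.01, -0.40, -0.62 and -0.83, beside -0.08, -0.24, -0.09, 0.05, -1.11 and -1.18 for all genes at that level. Calls could be made only for genes at 10 FPKM or more, which numbered 10, 11, 9, 9, 6 and 5. None was called between EMPs and liver MCPs, between liver and limb MCPs or between the limb ages, where 1.18% to 3.09% of all genes were called in each direction, so that 0 of 9 or 10 is near the background. In the macrophage-labelled library 2 of 11 were called higher than in EMPs (2.39% of all genes), the lysosomal thiol reductase Ifi30 (32.98 against 4.87 FPKM) and Slfn2 (12.5 against 1.61). In skin, of 6 tested, B2m, the light chain of MHC class I, was called higher than in limb at E14.5 (495 against 112; 1.78% of all genes) and Ifi30 lower (1.24 against 10.9; 33.4%). Against liver MCPs the immunoproteasome genes Psmb8 (2.81 against 15.4) and Psmb9 (0.28 against 13.3) were called lower, 2 of 5 tested against 38.1% of all genes. Textbook interferon targets, chosen after their values were seen, stayed low in all 6 libraries, with at most 0.96 FPKM for Isg15, 0.33 for Ifit1, 0.12 for Rsad2, 0.69 for Oas1a and 1.67 for Mx1, while the lowest value of Ifitm2 was 158.

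The receptors for interferon were present with the members. The type I receptor chain Ifnar2 read 37.0, 25.3, 64.2, 31.3, 20.2 and 27.4 FPKM from EMPs to skin, and Ifnar1 6.28 to 8.66. Ifngr1, the ligand-binding chain of the interferon-gamma receptor, read 40.9, 33.3, 44.7, 20.5, 7.03 and 4.6, and so was lower in the 2 later libraries, as Ly6e was, but over a narrower range. Of the 14 receptor and signalling genes, 4, 3, 4, 4, 2 and 4 could be tested in the 6 comparisons. Ifngr1 in skin against liver MCPs was the single call, in a pair where 38.1% of all genes were called lower, and the medians of the list in the 6 comparisons were -0.28, 0.23, -0.03, -0.21, -0.59 and -1.01.

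Ly6 proteins depend on the enzymes that build the GPI anchor. Of 28 genes of that pathway 8, 8, 7 and 7 could be tested in the 4 comparisons without skin, and none was called, beside 0.661% to 3.09% of all genes in each direction. The medians over genes at 1 FPKM or more were -0.27, -0.23, 0.19 and -0.04, the last of these for the limb step in which Ly6e was 11.4-fold lower. In skin against limb at E14.5, 3 of 6 tested were called lower against 33.4% of all genes, namely Dpm2 (3.09 against 19.4 FPKM), Dpm3 (listed at 0 against 17.5) and Pigs (3.92 against 37.1), and the median was -0.99 beside -1.11 for all genes. Against liver MCPs, 2 of 6 were called lower, Dpm3 and Pigs, against 38.1% of all genes. Of the 15 genes of IFITM palmitoylation, ubiquitination and endocytosis, 12, 12, 9 and 9 were tested in the 4 comparisons without skin and none was called, with medians of -0.38, -0.51, -0.15 and 0.12. In skin against limb at E14.5, Vcp (0.28 against 32.4), an ATPase that extracts ubiquitinated proteins, and Ap2s1 (0.28 against 12.99), an endocytic adaptor subunit, were called lower, 2 of 9 tested against 33.4% of all genes, and Vcp also against liver MCPs, 1 of 8 against 38.1%.

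**Figure D4:**
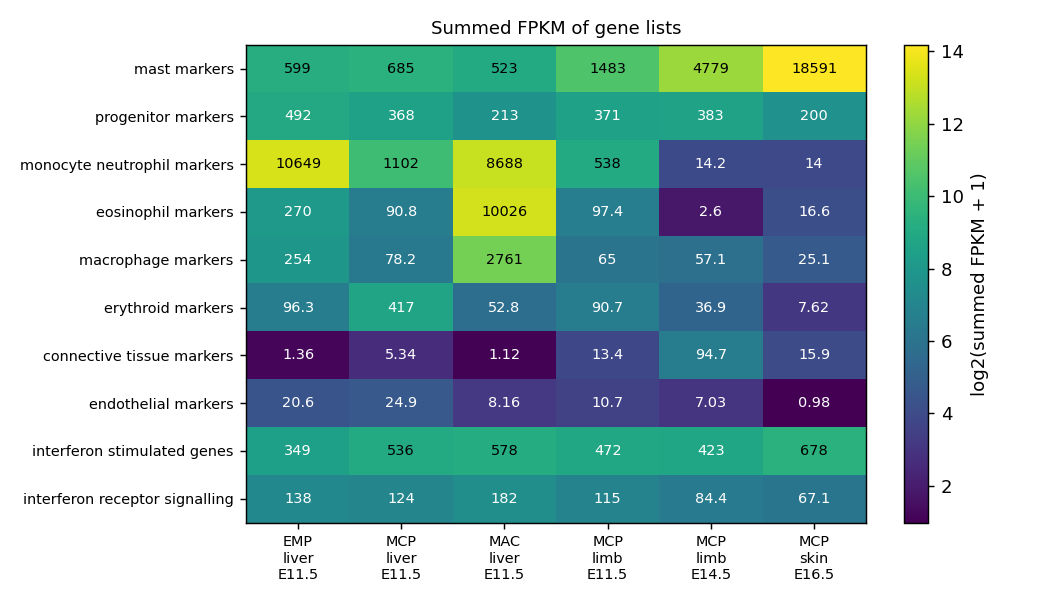
Summed FPKM (printed) of 10 gene lists in the 6 libraries, with colour for log2(sum + 1). Monocyte and neutrophil markers are at 10649 for EMPs and 14.2 for limb MCPs of E14.5, and the sum of interferon-stimulated genes, between 349 and 678, is highest in skin, where B2m makes up 495 of it and 21 of the 61 genes reach 1 FPKM, against 44 in the macrophage-labelled library.

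Genes were ranked by how closely their profile over the 6 libraries followed each member, using the root-mean-square distance between log2(FPKM + 1) values centred on the gene's own mean, among 4005 genes that reached 10 FPKM. With 6 libraries this likeness is descriptive. Ifitm1 was an outlying profile: its nearest genes were Cd3g (a distance of 0.83), Atp1b2 (0.99), Car1 (1.03), Gzmb (1.07) and S100a10 (1.11), against a median of 2.44 over all genes. Cd3g, a chain of the T cell receptor complex, read 0, 10.9, 0.18, 24.8, 3.26 and 0.22 FPKM from EMPs to skin. Gzmb, granzyme B, read 0, 21.5, 0.31, 56.4, 12.3 and 0, with the same peak as Ifitm1 in limb MCPs at E11.5. Car1, a carbonic anhydrase of red cell precursors, was highest in liver MCPs instead (41.1 against 28.7 in limb), as were Atp1b2 and S100a10.

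Ly6e had closer neighbours, led by Plac8 (0.33), Hist1h2bp (0.48), Perp (0.48), Ctse (0.54) and Ccl3 (0.65), with a median of 1.80 over all genes. Plac8, a cysteine-rich protein of haematopoietic cells, read 63.3, 41.4, 49.8, 42.3, 3.42 and 0 FPKM from EMPs to skin. Ctse, an aspartic protease, read 66.5, 175, 167, 175, 14.4 and 6.02. Each of the 5 genes thus had its 2 lowest values in the later libraries. Ifitm2 lay nearest to Pitpnc1 (0.30), Spry2 (0.30) and Stk25 (0.32), whose highest levels were 20.6, 11.8 and 10.8 FPKM. Ifitm3 lay nearest to Cybb (0.61), Gapt (0.64) and Itgam (0.71). Cybb, a subunit of the phagocyte oxidase, read 11.1, 3.28, 159, 3.34, 0.06 and 0, and Itgam, the integrin CD11b, 29.2, 21.3, 125, 13.04, 0.26 and 0.7. Ly6c2 lay nearest to Chil1 (0.13), Vsir (0.38) and Csf1r (0.40), and Chil1, a chitinase-like protein of myeloid cells, read 10, 0.44, 58.5, 0.69, 0 and 0.07. All 6 of these genes, like Ifitm3 and Ly6c2, had their highest value in the macrophage-labelled library, which the measure of likeness favours.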

How the data were processed

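Bulk RNA from sorted cells was sequenced in 6 libraries, 1 per group, and groups were taken from the labels. The authors deposited 1 table of FPKM values with 2 decimals. Per the submitters' processing notes, Bowtie2 and RSEM were run against the mouse build mm10 (GRCm38), and the sources used here state no versions. FPKM is scaled to the mapped fragments of a library, so a few very abundant genes leave fewer fragments for all others. FPKM sums differed between libraries, and the part of abundant genes in the low skin values was not tested. Of 17913 rows, 4 with repeated date-like names were dropped and 22 such names were kept unnamed.

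Members and gene lists were chosen with earlier results of these data known. With 1 library per group no test was possible, and the differences of log2(FPKM + 1), calls and 19 gene lists (376 entries) are descriptions. Named genes were the members, relatives at 1 FPKM or more, up to 3 list genes per comparison with the largest differences at 10 FPKM or more, any called, the nearest profiles and neighbours within 250 kb. Marker lists and textbook targets were added beside them, and members of lists outside that rule were named after their values were seen.

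Depth was estimated from the steps of FPKM values over 1409 genes with a single transcript of 600 to 2500 bases, where 75.7% to 81.1% of usable values fell within 0.2 of a whole number of fragments (40% by chance), and was checked on simulated data. Fragments of a member were taken at its median coding transcript length, so intervals are approximate. Alternatives were pseudocounts of 0.1 and 5, no filter, a filter of 30 FPKM, TPM, median-of-ratios scaling over 8774 genes, scaling without the 20 highest genes of each library and a 2-fold threshold; E14.5 limb in place of skin was added after seeing the data. Python 3.11.15, pandas 2.3.3 and SciPy 1.17.1 were used. Promoters came from RefSeq and shared stretches from GENCODE M21 transcripts.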

Additional observations from a re-analysis of the deposited data

How the results depend on the processing

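No paired analysis was possible because each group held 1 library, and no library could be left out within a group. Of the member counts, 90 kept their value within 1.5-fold under the alternatives and 8 did not; no called difference changed sign. Without an expression filter Ly6c2 was called lower in liver MCPs than in EMPs (1 member, against 1.08% of all genes). It was also called lower there as TPM (3.58%) and with the 20 highest genes of each library left out (2.68%). As TPM the filter of 10 let in more genes (8493 against 3369 in that pair). Ly6a was then called higher in skin than in limb at E14.5 (1 member, against 6.86% of all genes). It was also called higher than in liver MCPs (1 member, against 8.45%). The skin value of Ly6a rests on about 10.7 fragments. With a 2-fold threshold, 2 members were higher in liver MCPs than EMPs (Ifitm1 and Ifitm2; 8.52% of all genes), 1 in limb than liver MCPs at E11.5 (Ifitm1; 8%), and 2 lower in skin than limb at E14.5 (Ifitm2 and Ly6e; 62.7%). With a filter of 30 FPKM Ifitm3 was not tested at E14.5 against E11.5 in limb or in skin against liver MCPs. This left 2 members lower in place of 3 in each pair, against 1.62% and 44.4% of all genes. Ifitm3 in skin against liver MCPs was -1.79, short of the threshold, with a pseudocount of 5.

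Scaling changed the direction of 4 skin differences, while those of Ly6e in both skin pairs and of Ifitm1 and Ifitm3 against liver MCPs stayed below 0. In skin against limb at E14.5, Ifitm1 went from -0.57 to 0.24 as TPM, 0.86 with median of ratios and 0.55 without the highest genes, Ifitm2 to 0.04 and Ifitm3 to 0.02 with median of ratios, and Ifitm2 against liver MCPs to 0.22. The all-gene median in skin against limb went from -1.42 to -0.71, 0.43 and -0.09, and the lower share of calls from 94.95% to 78.7%, 42.1% and 61.7%. Against liver MCPs that share went from 89.4% to 76.8%, 40.3% and 57.6%. It went from 63.4% to 43.5% as TPM for liver MCPs against EMPs, from 21.6% to 41.9% as TPM and 9.68% with median of ratios for the macrophage-labelled library against EMPs, and from 63.4% to 47.9% with median of ratios for limb against liver MCPs. For E14.5 against E11.5 in limb, Ifitm1 stayed between -5.03 and -4.79, Ly6e between -3.59 and -3.12 and Ifitm3 between -3.27 and -2.03. Depth limits Ly6a in all libraries, Ly6c2 in all but EMPs and the macrophage-labelled library, and Ifitm3 in the later ones.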
